A study of Mus musculus with 2 samples.

Results

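The genes described here build, link, bind and cut the hyaluronan and versican gel of the embryonic heart, called the cardiac jelly. They were 10 mouse genes chosen by symbol, among 43346 Ensembl genes in the gene tables: the hyaluronan synthases Has1, Has2 and Has3, the proteoglycan Vcan, the link proteins Hapln1 and Hapln3, the receptor Cd44 and the proteases Adamts1, Adamts5 and Adamts9. All 10 were found in both gene tables, with 34 transcripts between them. Hearts came from B6NCrl mouse embryos at 10.5 days, healthy and of both sexes. There was 1 group of 2 libraries, each from a pool of hearts: 69 embryos in replicate 1 and 51 in replicate 2. Each library was made from 10 ng of total RNA with ERCC spike-ins, synthetic RNAs added to the sample. No second condition was measured, so no p-value could be computed, and every comparison is between genes, between transcripts or between the 2 pools.

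Cardiac jelly lies between the myocardium and the endocardium. Hyaluronan, a sugar polymer extruded by synthases in the cell membrane, binds the versican core protein, and link proteins hold the complex together. Mouse embryos without Has2 fail to form cardiac jelly and endocardial cushions, and loss of Vcan has similar effects. ADAMTS proteases cut versican as the jelly is removed, and a known cleavage site lies in the region coded by the GAG-beta exon of Vcan. The long versican exons GAG-alpha and GAG-beta carry the attachment sites for chondroitin sulfate chains, and splicing of these exons gives the forms named V0 (both), V1 (beta only), V2 (alpha only) and V3 (neither).

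The sequences that tell the versican forms apart are the exon junctions, and they are shown because the form is the main difference between the Vcan transcripts. Vcan (ENSMUSG00000021614.12) lies on the minus strand of mm10 chromosome 13, from 89655312 to 89742509. In transcript Vcan-203, exon 7 (chr13:89702918-89705797, 2880 bases) is the GAG-alpha exon and exon 8 (chr13:89688285-89693501, 5217 bases) is the GAG-beta exon. Both are wholly coding and a multiple of 3 bases long, as are the flanking exons 6 (294 bases) and 9 (114 bases). Each line gives 15 bases on either side of a junction, 5′ to 3′ on the coding strand, from the GENCODE M21 transcripts (GRCm38), with the downstream exon in capitals.
V0 and V2, exon 6 into GAG-alpha: cctactgctttaaacCTAAACAGAATATAT
V0, GAG-alpha into GAG-beta: gagaaaacaagacagGTCGATTGAGTGATA
V1, exon 6 into GAG-beta: cctactgctttaaacGTCGATTGAGTGATA
V2, GAG-alpha into exon 9: gagaaaacaagacagGACCTGATCTCTGCA
V3, exon 6 into exon 9: cctactgctttaaacGACCTGATCTCTGCA
The first of these was found in 2 M21 transcripts, Vcan-202 and Vcan-203. Each of the other 4 was found in 1 transcript of the whole M21 set: Vcan-203, Vcan-206, Vcan-202 and Vcan-201, in the order listed. These letters mark the forms in the annotation, whereas the values below are the authors' estimates per transcript, not counts of junction reads.

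The libraries held 45205713 and 41070978 expected counts, which are estimated reads per feature, of which 43295923 and 39786163 lay on mouse genes. Genes in the marker lists of heart tissues were present in both pools. They do not all mark the heart alone, since Prrx1 of the cushion list also stands in the limb or trunk list. All 8 myocardial genes, 10 endothelial and endocardial genes, 9 cushion mesenchyme genes and 6 epicardial genes of the marker lists reached 1 TPM in both. TPM, as deposited, is a relative abundance scaled for length and set to a fixed total over all features. Markers of neighbouring tissue differed between the pools. The 8 liver primordium genes summed to 1552.9 TPM in replicate 1 and 80.5 TPM in replicate 2, and the 8 foregut and epithelial genes to 370.1 and 153.2 TPM. In bulk RNA, fewer cells of a type and less RNA per cell cannot be told apart.

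**Figure D1:**
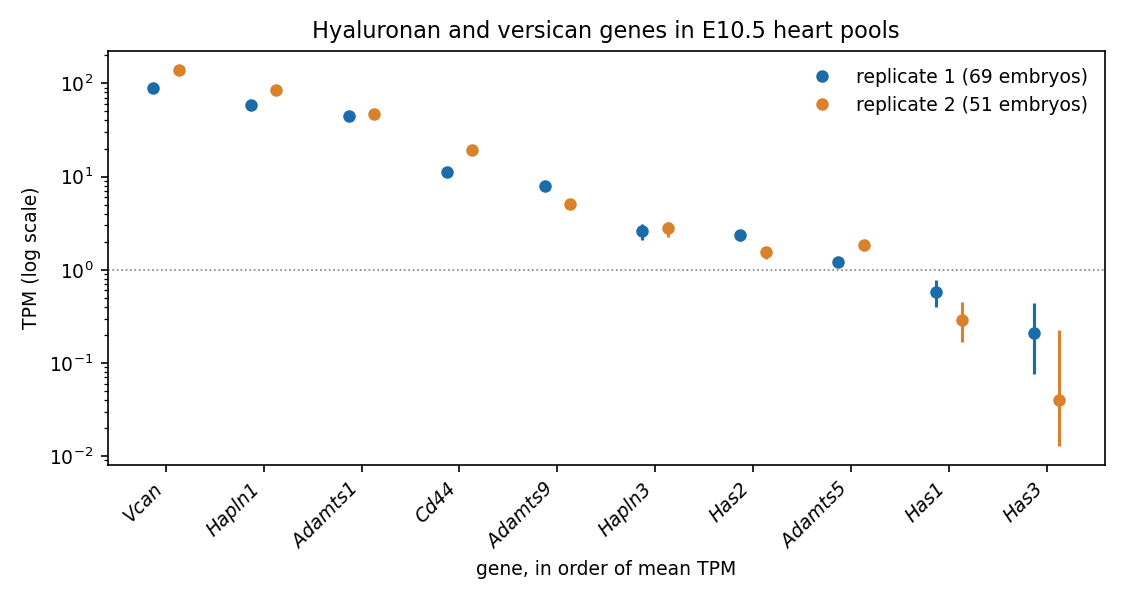
TPM (log scale) of the 10 genes in the 2 pools, in order of mean TPM; points are the deposited TPM, vertical lines the deposited interval of TPM, and the dotted line marks 1 TPM. Vcan stood highest (89.5 and 139.9 TPM) and Has3 lowest (0.21 and 0.04 TPM).

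Versican and its link protein Hapln1 had the most abundant of these mRNAs, and Has1 and Has3 the least abundant. Of the 10 genes, 8 reached 1 TPM in both pools and are called detected, against a background of 31.7% of all 43346 genes and 57.0% of 21474 protein-coding genes. Has1 and Has3 were below 1 TPM in both pools. The 10 genes summed to 218.3 TPM in replicate 1 and 301.4 TPM in replicate 2, and Vcan and Hapln1 together held 67.7% and 74.4% of those sums. Deposited transcript models are of release M4. Of the 34, 30 had the same length in release M21, and the other 4 were the models listed for Has1, Hapln1, Hapln3 and Adamts5. The model of Adamts5 was 8091 bases long against 10791 in M21, and that of Hapln1 5055 against 5715.

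Has2, the synthase that cushion formation depends on, led its family at a low level. Has2 (ENSMUSG00000022367.7, chromosome 15, 56665627 to 56694539, minus strand) had 2.34 TPM in replicate 1, with a deposited interval of 2.05 to 2.58, and 1.57 TPM in replicate 2, with an interval of 1.32 to 1.77. Its mean was 1.96 ± 0.544 TPM (SD, n = 2), from 295 and 178 counts. Has1 (ENSMUSG00000003665.6, chromosome 17, 17843323 to 17855205, minus strand) stood at 0.58 and 0.29 TPM, from 35 and 16 counts. The pools did not overlap between these 2 genes, and the TPM of Has2 was 4.03 and 5.41 times that of Has1. Has3 (ENSMUSG00000031910.10, chromosome 8, 106870242 to 106884566, plus strand) had 6.68 and 2.23 counts, of which the second is below the 3 counts that a count of 0 allows. Has3 overlaps Chtf8, a gene of 5093 and 4928 counts on the opposite strand. Has2 likewise overlaps the antisense RNA Has2os, which had 30 and 29 counts. The sources used here do not say whether strand was used in counting, so reads of Has3 in particular are uncertain. Of the summed synthase TPM, Has2 held 74.8% and 82.6% (78.7 ± 5.57%), Has1 held 18.5% and 15.3%, and Has3 held 6.71% and 2.11%.

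Vcan, the large chondroitin sulfate proteoglycan of the jelly, was measured in replicate 1 at 89.5 TPM and in replicate 2 at 139.9 TPM (114.7 ± 35.6 TPM), from 20775 and 26685 counts. By mean TPM it ranked 1361 among the 21474 protein-coding genes. Hapln1, which locks versican onto hyaluronan (ENSMUSG00000021613.8, chromosome 13, 89539796 to 89611652, plus strand), stood at 58.2 and 84.2 TPM (71.2 ± 18.3 TPM) and ranked 2169. Both genes were lower in replicate 1, and the ratio between them was nearly alike in the pools. Vcan TPM was 1.54 and 1.66 times that of Hapln1, a mean log2 ratio of 0.68 ± 0.08. Both were far above the synthase, since Vcan was at 38.3 and 89.1 times the TPM of Has2.

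Hapln3, a second link protein (ENSMUSG00000030606.7, chromosome 7, 79115102 to 79131018, minus strand), stood at 2.61 and 2.79 TPM, from 106 and 102 counts. Its only model, Hapln3-201, is typed in M21 as nonsense-mediated decay rather than protein-coding, with 339 coding bases. That model was 1433 bases long as deposited against 1191 in M21. Hapln1 held 95.7% and 96.8% of the TPM of the 2 link genes. Each link gene lies beside a gene of the versican family. Hapln1 and Vcan point toward each other with 43.7 kb between them, and 0 other protein-coding genes lie in that gap in M21. Hapln3 and the aggrecan gene Acan, which are 2 bases apart, had unlike levels, as Acan stood at 0.2 and 0.25 TPM. Of the other such pairs, Hapln2 (0.06 and 0.07 TPM) lies beside the brevican gene Bcan (0.04 and 0.01 TPM), and Hapln4 (0.52 and 0.25 TPM) beside the neurocan gene Ncan (0.24 and 0.06 TPM). Vcan and Hapln1 were thus the only neighbouring pair of the 4 in which both genes passed 1 TPM in both pools.

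Cd44, a cell-surface receptor for hyaluronan (ENSMUSG00000005087.13, chromosome 2, 102811141 to 102901665, minus strand), was measured in replicate 1 at 11.1 TPM and in replicate 2 at 19.2 TPM (15.2 ± 5.76 TPM). White cells also carry this receptor. Of the 8 macrophage and white cell markers, 5 reached 1 TPM in both pools, and all 8 summed to 46.1 and 62.9 TPM. The lysozyme gene Lyz2 stood at 22.7 and 53.5 TPM, the complement gene C1qb at 11.2 and 3.8 TPM and the pan-leukocyte gene Ptprc at 0.47 and 0.41 TPM. Only Lyz2 had the higher TPM in replicate 2, and the sum followed it. By TMM-scaled counts, 5 of the 6 markers with enough counts were higher in replicate 1 and 1, Lyz2, was lower. Their median log2 ratio, replicate 1 over replicate 2, was 0.95. The direction of Ptprc (0.18) rests on the scaling, since the spike-ins moved ratios by -0.32. C1qa had the largest difference (3.49 and 1.08 TPM), and no marker was at 0. The part of white cells in the level of Cd44 was not tested.

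Among the proteases, Adamts1 was the most abundant and Adamts5 the least. Adamts1, which cuts versican in the trabecular jelly (ENSMUSG00000022893.10, chromosome 16, 85793827 to 85803113, minus strand), stood at 44.6 and 46.4 TPM (45.5 ± 1.31 TPM), from 6169 and 5823 counts. Its 2 values were close and their deposited intervals overlapped. Adamts9, a long protease that also cuts versican (ENSMUSG00000030022.10, chromosome 6, 92772699 to 92943492, minus strand), stood at 7.85 and 5.05 TPM, and Adamts5, a protease of valve remodelling (ENSMUSG00000022894.5, chromosome 16, 85856173 to 85901828, minus strand), at 1.22 and 1.86 TPM. The summed TPM of the 3 proteases was 53.6 and 53.3. Of it, Adamts1 held 83.1% and 87.0% (85.1 ± 2.79%), Adamts9 14.6% and 9.47%, and Adamts5 2.27% and 3.49%. The level of Adamts9 includes noncoding and retained-intron models, which held most of its TPM in both pools. Adamts1 and Adamts5 are neighbours on the same strand, 53.1 kb apart with 0 protein-coding genes between them, yet Adamts1 was at 36.5 and 25.0 times the TPM of Adamts5.

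In the order of mean TPM, from Vcan through Hapln1, Adamts1, Cd44, Adamts9, Hapln3, Has2, Adamts5 and Has1 to Has3, 8 of the 9 pairs of neighbours in that order lay apart, meaning that both pools of the higher gene were above both pools of the lower. The exception was Has2 and Adamts5, whose order turned between the pools: Has2 was at 1.92 times Adamts5 in replicate 1 and at 0.844 times in replicate 2. Hapln3 and Has2 were apart by a small margin, 2.61 against 2.34 TPM in replicate 1, and their deposited intervals overlapped there. The intervals of Has1 and Has3 overlapped in both pools. Adamts9 is placed by its gene TPM, most of which lay on models that are not protein-coding. Its protein-coding models, Adamts9-201 (1.09 and 1.01 TPM) and Adamts9-205 (1.16 and 0.9 TPM), each stood below Hapln3 (2.61 and 2.79 TPM).

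The versican mRNA was made mostly of 3 forms, V0, V1 and V3, and V2 was near 0. The 4 transcripts that span the alternative exons are Vcan-203 (V0, 12427 bases), Vcan-206 (V1, 8332 bases), Vcan-202 (V2, 5702 bases) and Vcan-201 (V3, 2321 bases), and the other 5 are partial models.

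**Figure D2:**
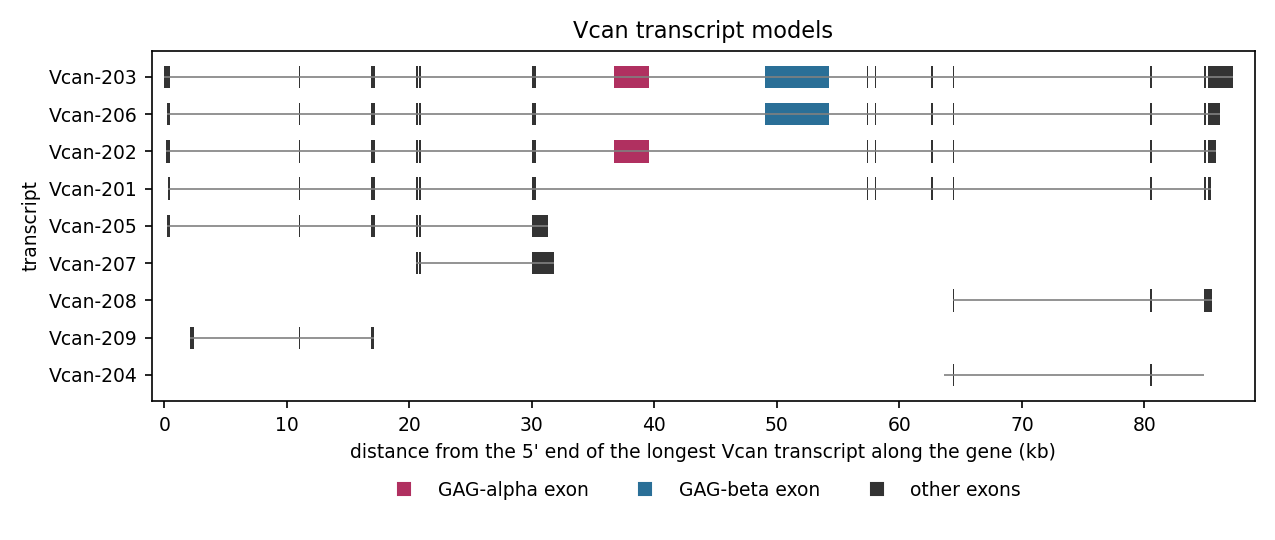
Transcript models of Vcan in GENCODE M21, drawn to scale as distance in kb from the 5′ end of Vcan-203, with exons as boxes and introns as lines. Vcan-203 and Vcan-206 hold the GAG-beta exon (blue), Vcan-203 and Vcan-202 the GAG-alpha exon (red), and the 4 full-span models end at different points of the last exon.

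V0 held 36.8% of Vcan TPM in replicate 1 and 32.2% in replicate 2 (34.5 ± 3.22%), at 33.0 and 45.1 TPM. V1, whose junction joins exon 6 straight to GAG-beta, held 29.9% and 26.0% (27.9 ± 2.81%), at 26.8 and 36.3 TPM. V0 stood at 1.23 and 1.24 times the TPM of V1, so these 2 forms kept almost the same ratio in the pools (mean log2 ratio 0.31 ± 0.01).

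V3, the form without either attachment exon, varied more. It held 20.4% of Vcan TPM in replicate 1 and 28.7% in replicate 2 (24.5 ± 5.89%), with 18.2 TPM (deposited interval 14.7 to 20.5) and 40.1 TPM (36.1 to 42.6). Relative to V0, V3 stood at 0.553 in replicate 1 and 0.889 in replicate 2, and relative to V1 at 0.68 and 1.1. V2, which is best known from the nervous system, had 0 and 61.2 counts and held 0% and 0.28%.

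By expected counts, which are not divided by length, V0 held 59.5% and 57.2%, V1 32.3% and 30.7% and V3 5.93% and 9.17%. V0 led in both pools on either scale, but V3 was far smaller by counts than by TPM. Among the 4 spanning transcripts, those with GAG-beta held 76.6% and 66.8% of TPM and 93.9% and 90.3% of counts. Those with GAG-alpha held 42.3% and 37.3% of TPM. The last exon of the models also differs, at 2047 bases in V0, 1019 in V1, 714 in V2 and 303 in V3, so the estimates rest on that end as well as on the GAG exons. Of the partial models, Vcan-205, which ends in an extended exon 6, held 4.18% and 5.83% of Vcan TPM, Vcan-209 held 3.89% and 3.51%, Vcan-208 held 2.84% and 2.35%, and the retained-intron model Vcan-207 held 1.99% and 1.12%. Vcan-204 had 0 counts in both pools.

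**Figure D3:**
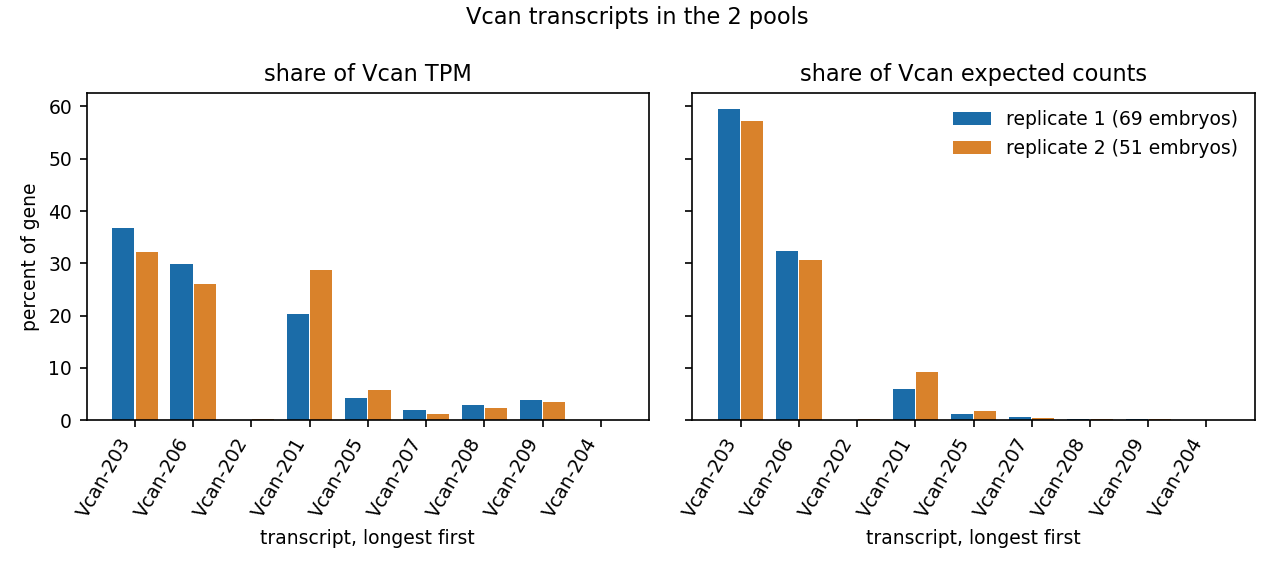
Percent of Vcan TPM (left) and of Vcan expected counts (right) held by each transcript, longest first, in the 2 pools. Vcan-203 led on both scales, and Vcan-201 held 20.4% and 28.7% of TPM but 5.93% and 9.17% of counts.

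Cd44 was divided between a short and a long form. Cd44-203, with 9 exons, skips all variable exons, while Cd44-207, with 14 exons, holds 5 of them (636 bases in all, within chr2:102831330-102842377, all coding). The junctions that part these forms are given with 15 bases on either side, 5′ to 3′ on the minus strand of chromosome 2, downstream exon in capitals, from GENCODE M21.
Cd44-203, skipping the variable exons: gcaccttggccaccaGAGATCGAGACTCAT
Cd44-207, into the first of its variable exons: gcaccttggccaccaATATAGACAGAATCA
Each was found in 1 transcript of the M21 set. The long form held 58.2% of Cd44 TPM in replicate 1 and 46.2% in replicate 2, and the short form 38.6% and 50.8%. Their order thus turned between the pools, since the short form stood at 0.663 and 1.1 times the TPM of the long form. By expected counts the long form led in both pools, with 71.8% and 61.2%. Their last exons differ as well, at 3197 bases in the long form and 1791 in the short form. Of the other models, the retained-intron model Cd44-209 held 2.74% and 2.47%, and the rest held at most 0.49%. Cd44-201, the model with 10 variable exons, had 7.39 and 0 counts.

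Adamts9 was spread over 5 transcripts, and Adamts1 was held almost wholly by one. Adamts1-201 held 93.6% and 94.0% of Adamts1 TPM. The full-length Adamts9-201 (8016 bases, 40 exons) held 13.9% and 19.9% of Adamts9 TPM but 29.0% and 34.2% of its counts. Adamts9-204, a short noncoding model of 1356 bases, held 33.7% in replicate 1 and 15.9% in replicate 2, on 101 and 27.7 counts. The retained-intron model Adamts9-203 held 23.6% and 32.5%, and the retained-intron model Adamts9-202 held 14.05% and 13.9%. Adamts9-205, the other protein-coding model, held 14.8% and 17.8% of TPM and 23.2% and 22.9% of counts. Adamts9-202, Adamts9-203 and Adamts9-204, none of them protein-coding, thus held most of Adamts9 TPM in both pools. Adamts9-201 stood at 1.09 and 1.01 TPM and Adamts9-205 at 1.16 and 0.9 TPM. Has1, Has2, Hapln1, Hapln3 and Adamts5 had 1 transcript each in the tables.

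Over transcripts that held a mean of 10% or more of a gene with a mean count of 50 or more, the share differed between the pools by 10 percentage points or more for 21.0% of 20343 transcripts, with a median difference of 3.98 points. Of the 11 such transcripts of these genes, 3 passed that limit: Cd44-203 (12.2 points), Cd44-207 (12.1 points) and Adamts9-204 (17.7 points). Vcan-201 differed by 8.3 points and did not pass. The median over the 11 was 6.04 points. Leading transcripts by TPM were the same in both pools for 3 of the 5 genes with several transcripts, namely Vcan, Adamts1 and Has3, the last on fewer than 10 counts.

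Vcan, Hapln1, Cd44 and Adamts5 were lower in replicate 1 than in replicate 2, while Has2 and Adamts9 were higher under TMM scaling but within counting error when scaled to the spike-ins. The difference is the log2 ratio of TMM-scaled counts, replicate 1 over replicate 2. A gene was called different where its mean count was 50 or more, the 2 pools differed 2-fold or more and the deposited TPM intervals were apart. By that rule 0 of the 8 genes with enough counts were called, against a background of 7.05% of 14131 genes (4.74% higher and 2.31% lower in replicate 1). At 1.5-fold, 4 of the 8 were called, all lower in replicate 1, against a background of 16.3% in either direction (8.58% higher and 7.75% lower in replicate 1, as shares of the same 14131 genes). The median absolute log2 ratio was 0.54 over the 8 genes and 0.24 over all 14131. With 1 group of 2 pools these are descriptions of the spread between pools, and no test applies.

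The 4 genes called at 1.5-fold were Cd44, Adamts5, Hapln1 and Vcan. Cd44 had a log2 ratio of -0.79, a ratio of 0.579 with a 95% counting interval of 0.54 to 0.621. Adamts5 had a log2 ratio of -0.71 (ratio 0.612, interval 0.525 to 0.712), Hapln1 of -0.63 (0.645, 0.627 to 0.663) and Vcan of -0.61 (0.655, 0.643 to 0.667). The intervals are exact binomial intervals for independent reads and cover counting error alone. Reads are not independent molecules, so the intervals may be too narrow. Adamts1 was at -0.17 (ratio 0.891, interval 0.859 to 0.923) and Hapln3 at -0.19 (ratio 0.874, interval 0.659 to 1.16). Scaled to the spike-ins, the ratio of Adamts1 was 0.713 (interval 0.688 to 0.739) and that of Hapln3 0.699 (0.528 to 0.927).

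Has2 was at 0.48, a ratio of 1.39 with an interval of 1.15 to 1.69, so it lay above 1 under TMM. Scaled to the spike-ins, its ratio was 1.11 with an interval of 0.923 to 1.35, which includes 1. Has1 was at 0.86 on 35 and 16 counts, with an interval of its ratio from 0.992 to 3.56. Has3 had a ratio of 2.94 with an interval of 0.56 to 29.0. Adamts9 was at 0.25 by counts and 0.64 by TPM. Its mean transcript length was 3885 bases in replicate 1 and 4706 in replicate 2, the pool in which the short Adamts9-204 held less.

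**Figure D4:**
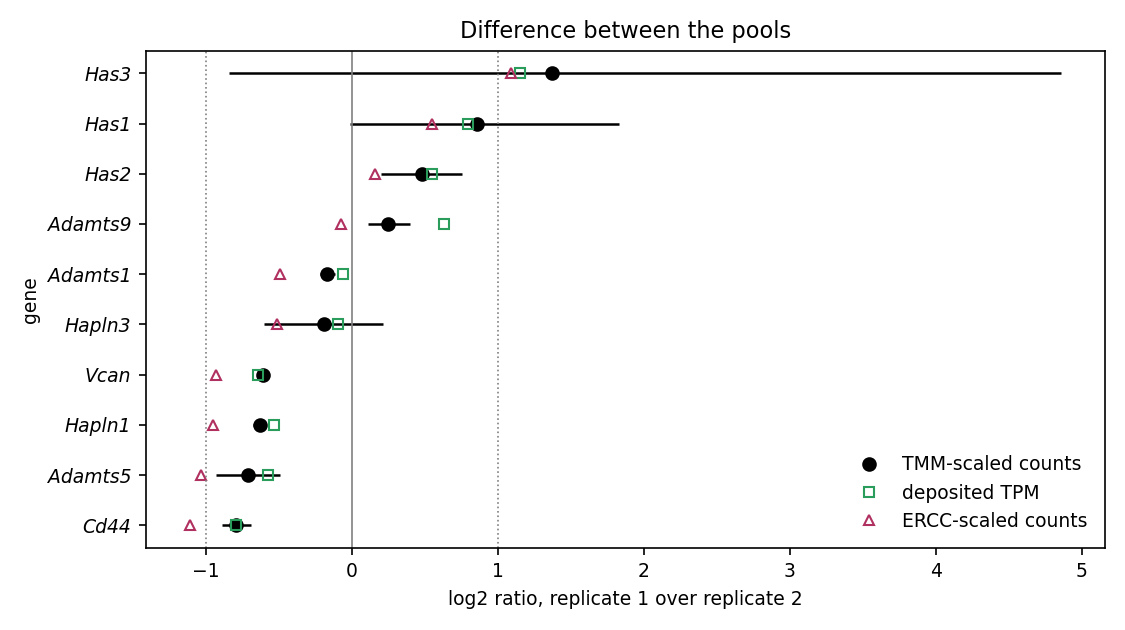
Log2 ratio of replicate 1 over replicate 2 for the 10 genes, by TMM-scaled counts (black, with 95% counting intervals), deposited TPM with a pseudocount of 0.1 (green squares) and ERCC-scaled counts (red triangles); dotted lines mark 2-fold. Cd44 lay at -0.79 and Has2 at 0.48 by TMM, and ERCC scaling moved all points to the left, past 0 for Adamts9 (-0.07).

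Scaling to the spike-ins moved the log2 ratio of each of the 8 genes with enough counts by -0.32 and that of Has3 to 1.09, against 1.37 under TMM, and the median of all genes to -0.34 from -0.01. Under it Cd44 (-1.11) and Adamts5 (-1.03) passed the 2-fold rule, both lower in replicate 1, against a background of 9.18% of the 14131 genes under the same scaling (3.09% higher and 6.09% lower in replicate 1). Has2 was at 0.16 and Adamts9 at -0.07, and the counting intervals of both ratios included 1. The tissue markers differed between the pools as well, and their ratios below are those under TMM.

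All 8 myocardial markers were lower in replicate 1 (median log2 ratio -0.85, sums of 18627.4 and 30650.7 TPM). They were led by the actin gene Actc1 (6437 and 11048 TPM) and the atrial myosin light chain Myl7 (5785 and 6877 TPM), and the slow myosin heavy chain Myh7 had the largest difference (946.3 and 2678 TPM). Of the 10 endothelial and endocardial markers, 9 were lower (median -0.52, sums of 514.5 and 609.1 TPM), among them Plvap (142.9 and 165.2 TPM) and Tek (34.5 and 54.0 TPM), while Egfl7 was not (155.2 and 139.4 TPM). All 9 cushion mesenchyme markers were higher in replicate 1 (median 0.71, sums of 899.9 and 549.8 TPM), led by the collagens Col3a1 (369.8 and 261.7 TPM) and Col1a1 (258.5 and 123.8 TPM), with the largest difference for Prrx1 (16.9 and 6.7 TPM). The directions of Col3a1 (log2 ratio 0.29) and Egfl7 (0.05) rest on the scaling, since the spike-ins moved ratios by -0.32. Postn of the cushion list (86.0 and 54.7 TPM) also stands in the list of other jelly and cushion matrix.

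The 6 epicardial markers had a median of 0.05 (sums of 271.1 and 252.4 TPM), with Upk3b at 97.8 and 103.4 TPM, Tcf21 at 63.4 and 54.0 TPM and the largest difference for Aldh1a2 (27.7 and 18.2 TPM). Red cell genes, led by the embryonic globins Hbb-y (13858 and 18907 TPM) and Hbb-bh1 (7391 and 8358 TPM), had a median of -0.35. All 8 liver primordium markers were called higher in replicate 1 (median 4.46), among them Afp (736.7 and 27.6 TPM), Trf (264.6 and 28.0 TPM) and Hnf4a (3.69 and 0.03 TPM). All 6 foregut and epithelial markers with enough counts were called higher too (median 1.88), among them Krt8 (174.7 and 76.6 TPM), Krt18 (157.0 and 68.3 TPM) and the lung and thyroid factor Nkx2-1 (1.58 and 0.02 TPM). The calls of Krt8 (log2 ratio 1.09) and Krt18 (1.1) rest on the scaling, since the spike-ins moved ratios by -0.32. Over all 14131 genes compared, 4.74% were called higher in replicate 1 under TMM. None of the markers in the lists of heart tissues, red cells, liver and foregut was at 0.

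In the list of neural crest and neural tube, Pax3 stood at 1.58 and 0.24 TPM and Sox10 at 1.35 and 0.29 TPM, and the 6 genes summed to 3.74 and 1.2 TPM. Of those 6 genes, 0 reached 1 TPM in both pools, and only these 2 had enough counts to compare. Sox3 went the other way, at 0.2 and 0.43 TPM on 12 and 23 counts. In the list of skeletal and trunk tissue, Hoxa9 stood at 4.71 and 0.32 TPM and Hoxd9 at 2.53 and 0.04 TPM, and the 8 genes summed to 30.8 and 8.59 TPM. Of that sum, 16.9 and 6.7 TPM were Prrx1, which the cushion mesenchyme list also holds. Foxd3, Sox1 and Hoxb9 were at 0 in replicate 2. The part of any of these tissues in the ratios of the hyaluronan and versican genes was not tested.

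Other genes of the pathway came from 7 lists of 68 genes in all, the antisense RNA Has2os among them. Of the 68, 52 reached 1 TPM in both pools, against a background of 31.7% of all genes and 57.0% of protein-coding genes. With a mean count of 50 or more, 59 could be compared, and 8 of them (13.6%) were called at 2-fold, against the background of 7.05%: 7 higher and 1 lower in replicate 1. Under ERCC scaling 10 were called, 6 higher and 4 lower in replicate 1, against a background of 9.18%, with 3.09% higher and 6.09% lower. The median log2 ratio of the 59 was 0, against -0.01 over all genes. Calls given per list below are those under TMM.

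Enzymes that supply and break down hyaluronan were all or mostly present. All 8 precursor genes were detected, and 0 were called. Ugp2, which makes UDP-glucose, stood at 124.7 and 169.5 TPM, Ugdh, which turns it into UDP-glucuronic acid for hyaluronan, at 117.1 and 86.4 TPM, and Uap1, which makes UDP-N-acetylglucosamine, at 52.4 and 57.1 TPM. Ugdh was thus far above Has2 (2.34 and 1.57 TPM), although it serves other sugar chains too. Of 8 breakdown genes, 6 were detected and 0 were called. Hyal2, a hyaluronidase, stood at 106.4 and 98.2 TPM and the cell-surface protein Cemip2 at 49.7 and 89.8 TPM. Cemip2 had a log2 ratio of -0.96 under TMM, just short of 2-fold, so its not being called rests on the scaling. Hexa, a lysosomal hexosaminidase, stood at 56.9 and 61.7 TPM, whereas Cemip (0.35 and 0.6 TPM) and Hyal3 (0.3 and 0.59 TPM) were below 1.

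**Figure D5:**
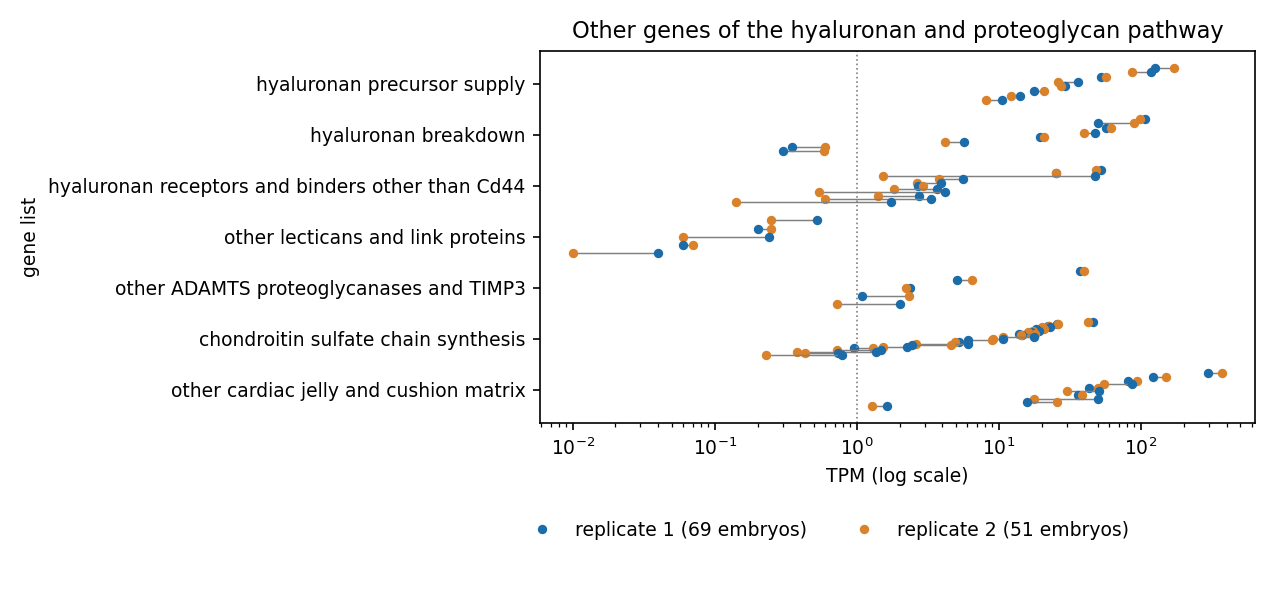
TPM (log scale) of the 68 other pathway genes by list; each gene is a pair of points, 1 for each pool, joined by a line, and the dotted line marks 1 TPM. The 5 other lecticans and link proteins lay below 1 TPM, and the longest lines are those of hyaluronan-binding heavy chain genes such as Itih2 (47.7 and 1.52 TPM).

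Of 11 other hyaluronan receptors and binders, 8 were detected and 4 were called, all higher in replicate 1. The background of genes called higher in replicate 1 was 4.74%. Hmmr, a hyaluronan-binding protein that also acts at the mitotic spindle, stood at 52.4 and 48.3 TPM, and Stab1, a scavenger receptor, at 25.4 in both pools. The called genes were Itih2 (47.7 and 1.52 TPM), Itih3 (4.15 and 0.54 TPM) and Itih1 (134 and 3 counts), heavy chains that the liver secretes and that bind hyaluronan, and the endothelial hyaluronan receptor Stab2 (3.35 and 0.6 TPM). The liver primordium markers that moved with them summed to 1552.9 and 80.5 TPM, and their part in these 4 calls was not tested. Tnfaip6, which transfers heavy chains to hyaluronan, stood at 5.61 and 3.78 TPM and was not called.

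All 5 other lecticans and link proteins were below 1 TPM in both pools. Among other versican-cutting proteases and their inhibitor, the inhibitor Timp3 stood at 37.2 and 40.0 TPM, Adamts15 at 5.04 and 6.48 TPM and Adamts4 at 2.35 and 2.23 TPM. Adamts1 (44.6 and 46.4 TPM) was therefore above each of the 6 other proteases measured here. Adamts8 (1.08 and 2.33 TPM, log2 ratio -1.2) was called lower and Adamts20 (2.01 and 0.73 TPM, 1.49) higher in replicate 1.

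Chondroitin sulfate synthesis, which builds the chains of versican, had 16 of 21 genes detected. Its most abundant genes were B3gat3 (45.9 and 42.6 TPM), which completes the linker, Chpf (25.7 and 26.1 TPM), a polymerizing factor, and Chst12 (22.0 and 22.5 TPM), a sulfotransferase. Under TMM, 1 of the 19 genes with enough counts was called. It was Chst15, another sulfotransferase, higher in replicate 1 at 6.09 and 2.61 TPM (log2 ratio 1.06). Csgalnact1 (-0.91) fell just short of 2-fold and was not called. Both outcomes rest on the scaling, since the spike-ins moved ratios by -0.32. Chst3 (0.74 and 0.43 TPM) and Chsy3 (0.79 and 0.23 TPM) were below 1 in both pools. In the list of other jelly and cushion matrix all 10 genes were detected. One of them, the antisense RNA Has2os (1.64 and 1.28 TPM), is not a matrix gene. The list was led by fibronectin, Fn1 (297.1 and 373.4 TPM), and the fibulins Fbln1 (121.7 and 149.5 TPM) and Fbln2 (80.7 and 94.5 TPM), which bind versican. The small proteoglycan Lum was called higher in replicate 1, at 49.9 and 17.7 TPM.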

How the data were processed

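Total RNA of 2 heart pools was quantified by the authors per gene and per transcript. The deposited tables give expected counts (estimated reads per feature, not normalised), TPM and FPKM (both scaled for length, spike-ins included), interval bounds of TPM, treated as a score, and the percent of a gene's TPM held by each transcript. Lengths were read as bases, since 30 of 34 equal the spliced length in bases. The deposited description names assembly mm10 and annotation M4. No source used here names the quantifying program or the strand setting.

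Symbols and positions came from GENCODE M21 (GRCm38, which is mm10), which matched 42462 of 43346 genes. Expected counts were rounded to whole numbers and scaled by TMM (edgeR 4.0.16, limma 3.58.1, R 4.3.3) over genes with a mean count of 10 or more, with a prior count of 0.5. Counting intervals are exact 95% binomial intervals. The ratio and the calling rule were also run on simulated counts, with intervals computed from those counts. That run does not test the deposited intervals, and its rate of false calls is not reported here. Alternatives were DESeq2 1.42.0 size factors, ERCC scaling, deposited TPM and FPKM, posterior means, other thresholds and each pool alone. The rest was done in Python 3.11.15 (pandas 2.3.3, scipy 1.17.1, numpy 2.4.6, matplotlib 3.10.9).

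The 10 genes and the lists were chosen with earlier results of these data known. All 10 are named. From each pathway list the 3 most abundant genes, those called different and up to 3 below 1 TPM are named, and from each marker list the 2 most abundant genes and the one with the largest difference. Tnfaip6, Ptprc, Csgalnact1, Sox3, the genes at 0 and all lecticans and link proteins were named after their values were seen. The labels state separate biological replicates, each a pool, so the spread is between pools, not embryos.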

Additional observations from a re-analysis of the deposited data

How the results depend on the processing

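Of the 59 pathway genes compared, 8 were called at 2-fold, 8 with DESeq2 size factors, 10 under ERCC scaling and 19 at 1.5-fold. Over all 14131 genes compared, the same settings called 996 (7.05%), 997, 1297 (9.18%) and 2308 (16.3%). At a count minimum of 10, 11 pathway genes were called, against 1488 of 17557 genes. Has2 held 74.8% to 82.6% of synthase TPM with either pool left out, Hapln1 95.7% to 96.8% of link TPM and Adamts1 83.1% to 87.0% of protease TPM. By expected counts Has2 held 89.2% and Hapln1 99.0%. Detection gave 8 genes in each pool alone and 5 at a minimum of 5 TPM. With a pool left out, V3 (Vcan-201) held 20.4% to 28.7% of Vcan TPM, V0 (Vcan-203) 32.2% to 36.8% and V1 (Vcan-206) 26.0% to 29.9%. By expected counts they held 7.55%, 58.3% and 31.5%, since counts are not divided by length.

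Of the 10 genes, 0 were called different between the pools at 2-fold, 2 under ERCC scaling (Cd44 and Adamts5) and 4 at 1.5-fold. Over all genes 996 were called, 1297 under ERCC scaling (437 higher and 860 lower in replicate 1), 1628 with no count minimum and 2308 at 1.5-fold. Of the called genes 67.3% were higher in replicate 1 under TMM, 76.9% by TPM and 33.7% under ERCC scaling. Which scaling is right was not tested. No paired analysis was possible because there is 1 group. Depth limits Has1 (35 and 16 counts) and Has3 (6.68 and 2.23 counts).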
